A study of Mus musculus with 6 samples.

Results

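The proteasome is the protein complex that degrades proteins tagged with ubiquitin. Its genes were picked out here by symbol: Psma, Psmb, Psmc, Psmd or Psme followed by a digit, without the immunoproteasome genes Psmb8, Psmb9 and Psmb10. The rule found 41 of the 18193 genes measured. Of these, 16 belong to the core particle and 21 were counted with the regulatory particles. The remaining 4 are Psmd5, Psmd9 and Psmd10, which help to assemble the base of the regulatory particle, and Psmc3ip, a factor of meiotic recombination that only shares the symbol. Psme3ip1, which encodes a protein that binds the activator made from Psme3, also matched by symbol alone and was left among the 21. Psme2 shares its probe set with another gene and was not analysed here.

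RNA was measured on 6 arrays of isolated islets, small groups of endocrine cells in the pancreas, from male CD1 mice aged 8 weeks. In the CMPF group, 3 arrays, the islets were cultured for 24 hours with 200 uM CMPF, a circulating furan compound. In the vehicle group, 3 arrays, they were cultured for 24 hours with 0.1% ethanol. All islets had rested overnight in culture medium before treatment. The labels number the samples 1 to 3 in each group and do not say what the numbers stand for. The p-values therefore measure the spread between these samples alone, which may be technical.

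The core particle is a barrel of stacked rings. The outer rings are built of alpha subunits, which gate the entrance, and the inner rings of beta subunits, some of which cut the peptide chain. The regulatory particle caps the barrel: its base holds a ring of ATPases that unfold the substrate, and its lid removes the ubiquitin chain. Other activators can take the cap's place. When the proteasome is inhibited, the transcription factor Nfe2l1 (NRF1) raises the subunit genes together through antioxidant response elements, a motif that Nfe2l2 (NRF2) also binds. Beta cells of the islet make large amounts of secretory protein, and misfolded chains from the endoplasmic reticulum are degraded by the proteasome.

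The core of the antioxidant response element, TGACNNNGC, was searched for on both strands in the 250 bases before each RefSeq gene start (GRCm38.p6). A promoter was listed for 34 of the 41 genes, and 5 of the 34 (14.7%) held the motif, against 11.5% of all 27025 genes with a promoter. Their 5 stretches are shown because they are the proteasome promoters with this motif in the window. Each line holds 60 bases, read 5′ to 3′ on the strand of the gene, and capitals mark the match.
Psmb5, chr14:54618008-54618067, minus strand: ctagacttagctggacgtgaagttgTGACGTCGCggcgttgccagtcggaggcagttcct
Psmb6, chr11:70525297-70525356, plus strand: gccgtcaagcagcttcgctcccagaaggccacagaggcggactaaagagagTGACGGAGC
Psmc6, chr14:45329574-45329633, plus strand: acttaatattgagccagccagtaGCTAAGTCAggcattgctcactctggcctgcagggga
Psmd12, chr11:107479278-107479337, plus strand: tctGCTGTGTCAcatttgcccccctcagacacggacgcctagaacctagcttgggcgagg
Psmd9, chr5:123228130-123228189, plus strand: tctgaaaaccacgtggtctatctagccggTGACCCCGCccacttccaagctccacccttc

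The match lies on the strand of the gene in Psmb5, Psmb6 and Psmd9, and on the opposite strand in Psmc6 and Psmd12. A match is a string of letters and shows no binding. A second motif, CCAAT on either strand, was found in 15 of the 34 promoters (44.1%) and in 37.5% of all. It is shown for Psma1 and Psma7, the 2 members whose groups did not overlap below.
Psma1, chr7:114276210-114276269, minus strand: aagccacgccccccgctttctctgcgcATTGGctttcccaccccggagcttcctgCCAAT
Psma7, chr2:180042628-180042687, minus strand: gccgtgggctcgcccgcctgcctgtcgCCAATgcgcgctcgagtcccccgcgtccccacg

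The islet label was checked against hormone genes. Ins2 read 14.70, 14.68 and 14.69 on the CMPF arrays and 14.73, 14.61 and 14.73 on the vehicle arrays in log2 units, and Gcg and Sst read between 13.75 and 14.45. Ins2 gave the highest value on any array, and not every beta cell marker was as even. Slc2a2 read 11.46, 10.27 and 9.63 with CMPF and 10.905, 10.30 and 10.07 with vehicle. Of the 8 measured beta cell markers, 2 had a higher mean with CMPF and 6 a lower one. Markers of acinar cells, the enzyme-secreting cells around the islets, were also bright and differed between arrays. The log2 of their summed signal, over 20 of 24 listed markers, was 16.57, 17.21 and 16.29 on CMPF arrays 1 to 3 and 16.32, 17.13 and 15.52 on vehicle arrays 1 to 3. It was highest on the array numbered 2 in both groups, and 15 of the 20 were higher with CMPF in all 3 replicate numbers. In a bulk sample, fewer cells of a type and less RNA per cell cannot be told apart.

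Read from the brightest probe set of each gene, proteasome transcripts were nearly level between CMPF and vehicle islets. The median difference over the 41 genes, CMPF minus vehicle, was -0.00093 log2 units, against 0.0018 over all genes. Of the 41 genes 20 lay above 0 and 21 below, and 50.7% of all genes lay above. The differences ran from -0.19 for Psmc4 to 0.13 for Psmd4. All 41 lay within 0.2 log2 units, as did 92% of all genes, and 36 lay within 0.1, as did 66.9% of all genes. Proteasome genes are brighter than most, and bright genes vary less, so the closer reference is genes above the median level of all genes, 6.42. There 34 of 38 proteasome genes lay within 0.1, against 75.8% of 9096 genes, and 18 of 38 lay above 0, against 42.3%. The 38 were still brighter, with a median level of 10.61 against 8.19 for the 9096. The narrower spread therefore cannot be told apart from an effect of level.

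**Figure D1:**
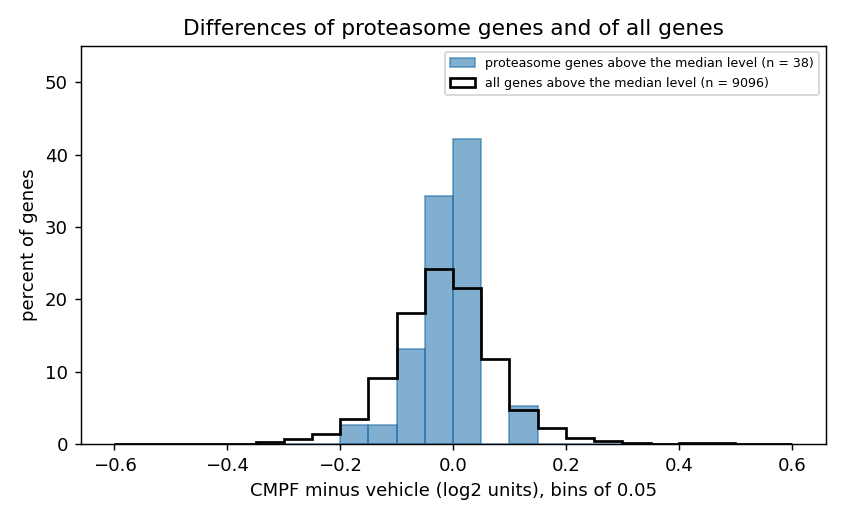
Differences between CMPF and vehicle islets (x axis, log2 units, bins of 0.05) as percent of genes (y axis), for the 38 proteasome genes above the median level (filled bars) and all 9096 genes above it (black outline). The filled bars all lie between -0.2 and 0.15, closer to 0 than the outline, but the proteasome genes are also brighter than the genes of the outline.

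No member passed the test. Limma, fitted across all genes with Benjamini-Hochberg adjustment at a threshold of 0.05, called 0 of 41 members and 0% of all genes. The smallest unadjusted p of a member was 0.225, for Psma5, and 0 members lay under 0.05, where 1.13% of all genes did. With the replicate number as a block, limma again called 0 members and 0% of genes. The smallest unadjusted p was then 0.154, for Psmc4, and 0 members lay under 0.05, where 3.8% of all genes and 2.17% of those above the median level did.

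The precision sets a bound on what could have been missed. The 95% interval of the difference, from limma without the block and not adjusted for the number of genes, lay within a 1.5-fold change in either direction for all 41 members and for 89.7% of all genes. It lay within a 1.25-fold change for 34 of 41, and for 39.2% of all genes. With the block the counts were 41 (96.9% of all genes) and 38 (61.8% of all genes). Among genes above the median level the shares within 1.5-fold and 1.25-fold were 90.5% and 49.1% without the block. With it they were 97.9% and 75.7%. The widest intervals belonged to Psmd8 (-0.38 to 0.48), Psmc3ip (-0.28 to 0.52) and Psmc4 (-0.58 to 0.20). These bounds hold for the brightest probe set of each gene on the scale of the deposited values, which tends to compress differences.

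**Figure D2:**
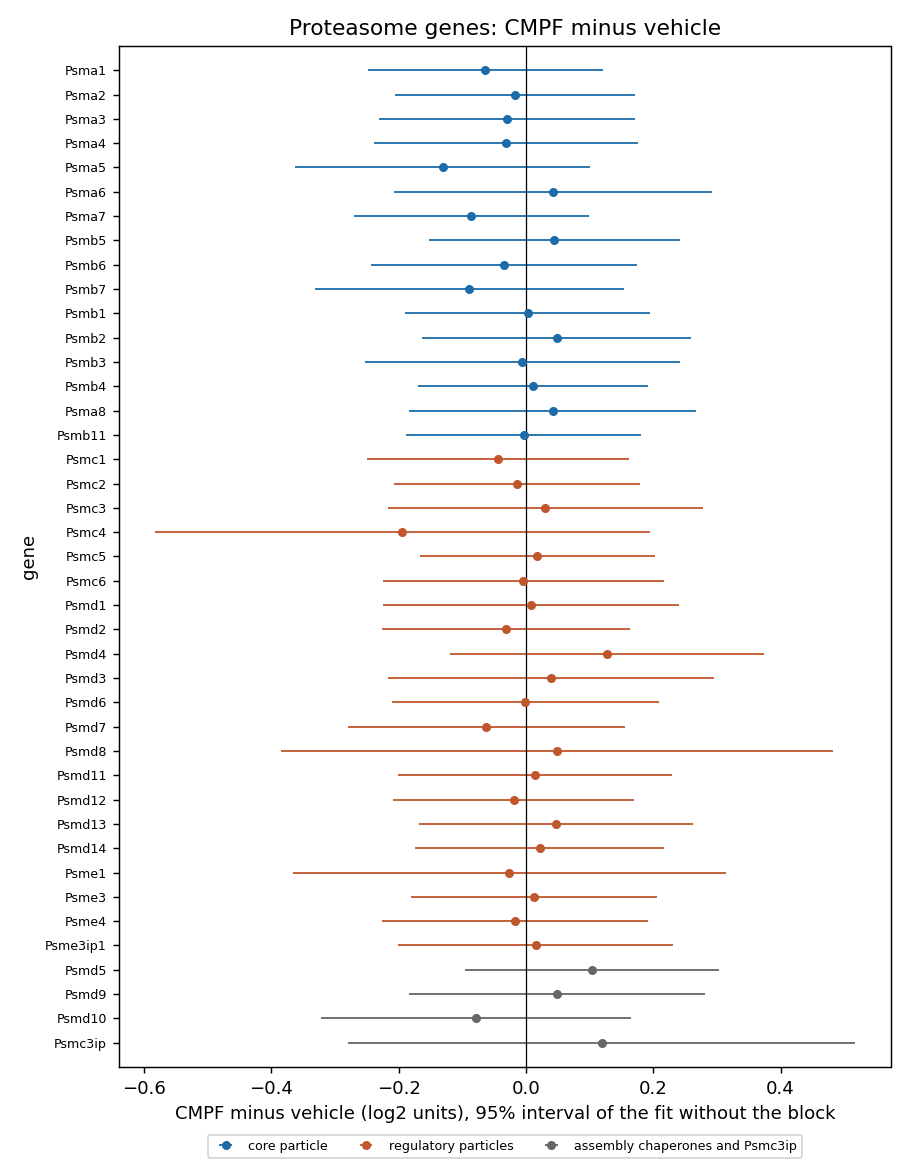
Difference between CMPF and vehicle islets for each of the 41 genes (x axis, log2 units; y axis, genes by role). Points are differences of means of 3 arrays each, bars are 95% intervals from limma without the block, and every interval crosses 0.

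In the alpha ring of the core 6 of 7 genes had a negative difference and 1 a positive one, where 42.3% of genes above the median level were positive. The median was -0.03 and the range -0.13 to 0.04. By replicate number the ring's median was -0.09, -0.04 and 0.01, and in number 3 CMPF was higher for 4 of the 7. Psma7 read 11.19, 11.21 and 11.20 on CMPF arrays 1 to 3 and 11.28, 11.33 and 11.25 on vehicle arrays 1 to 3. The groups did not overlap, and the difference was -0.09 (SE 0.078; limma unadjusted p = 0.311). Psma1 read 10.87, 10.93 and 10.94 with CMPF and 11.01, 10.96 and 10.97 with vehicle. Here too every CMPF array lay below every vehicle array, by a mean of -0.06 (SE 0.079). These were the only 2 of 41 members with CMPF below vehicle on all arrays, and 0 lay above. Over all genes 2.11% lay below and 2.41% above, and among genes above the median level 2.62% and 0.978%.

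Psma5 had the largest difference of the ring. It read 10.77, 10.77 and 10.98 with CMPF, against 10.93, 11.06 and 10.91 with vehicle. The groups overlapped, since CMPF array 3 lay above vehicle arrays 1 and 3, and the difference was -0.13 (SE 0.099). Psma6, the only alpha gene above 0 on its brightest probe set, differed by 0.04 (SE 0.107). Psma2, Psma3 and Psma4 differed by -0.02 to -0.03.

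The catalytic subunits had differences of both signs. Psmb5 encodes the subunit with chymotrypsin-like activity, the main target of bortezomib. It read 10.92, 11.08 and 10.96 with CMPF and 10.94, 10.97 and 10.92 with vehicle, a difference of 0.04 (SE 0.084). Psmb6, with caspase-like activity, read 10.93, 11.06 and 10.95 with CMPF and 10.98, 11.11 and 10.95 with vehicle, a difference of -0.03 (SE 0.089). Psmb7, with trypsin-like activity, read 8.81, 8.83 and 8.71 with CMPF and 9.04, 8.84 and 8.74 with vehicle, a difference of -0.09 (SE 0.104). For Psmb7 the gap came mainly from replicate number 1: the differences were -0.23, -0.0080 and -0.03. All 3 genes overlapped between the groups.

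The beta subunits without catalytic activity had a median of 0.0073 and a range from -0.0059 to 0.05. Psmb4 had the smallest spread of any member, with 11.91, 11.92 and 11.90 in CMPF islets and 11.92, 11.90 and 11.87 in vehicle islets. Psmb2 read 10.80, 10.90 and 10.68 with CMPF and 10.76, 10.73 and 10.74 with vehicle, a difference of 0.05 (SE 0.090). Psmb1 and Psmb3 differed by 0.0028 and -0.0059. The tissue-restricted core genes were dim. Psma8, of the testis, read 3.67, 3.47 and 3.45 with CMPF and 3.50, 3.55 and 3.42 with vehicle. Psmb11, of the thymus, read 3.64, 3.64 and 3.58 with CMPF and 3.59, 3.64 and 3.65 with vehicle. Both lay under the lower quartile level of the table, 4.53. The values carry no detection call, so their differences of 0.04 and -0.0036 say little.

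In the regulatory particle, the ATPase ring held the lowest gene of all. Psmc4 read 10.57, 10.86 and 11.09 in CMPF islets and 10.85, 11.29 and 10.96 in vehicle islets. The groups overlapped, and the difference was -0.19 (SE 0.166, or 0.120 with the block), from -0.28, -0.43 and 0.12 in replicate numbers 1 to 3. Psmc1 read 9.79, 9.83 and 9.85 with CMPF and 9.83, 9.98 and 9.79 with vehicle, a difference of -0.04 (SE 0.088). The other 4 ATPase genes lay between -0.01 and 0.03. The median of the 6 was -0.0088.

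The base subunits outside the ring held the highest member. Psmd4, a ubiquitin receptor, read 10.20, 10.51 and 10.27 with CMPF and 10.15, 10.25 and 10.20 with vehicle. It was higher with CMPF in all 3 replicate numbers, by 0.05, 0.26 and 0.07, and the groups overlapped. The difference was 0.13 (SE 0.105; limma unadjusted p = 0.262, or 0.173 with the block). Psmd2 and Psmd1 are the large scaffold subunits. Psmd2 read 10.26, 10.13 and 10.26 with CMPF and 10.26, 10.22 and 10.26 with vehicle, a difference of -0.03 (SE 0.083), and Psmd1 differed by 0.0079.

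The lid was near level, with a median of 0.02 over 8 genes and a range from -0.06 to 0.05. Psmd14, the enzyme that cuts the ubiquitin chain from the substrate, read 10.42, 10.55 and 10.52 with CMPF and 10.45, 10.52 and 10.45 with vehicle, a difference of 0.02 (SE 0.083). Psmd7, its partner, read 9.84, 10.04 and 10.02 with CMPF and 9.99, 10.10 and 9.999 with vehicle, a difference of -0.06 (SE 0.093). Psmd13, another lid subunit, read 9.40, 9.60 and 9.42 with CMPF and 9.42, 9.47 and 9.38 with vehicle, a difference of 0.05 (SE 0.092). In each of these genes the groups overlapped. Psmd3, Psmd6, Psmd8, Psmd11 and Psmd12 lay between -0.02 and 0.05.

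The alternative activators were also close to 0. Psme1, an interferon-inducible subunit of the PA28 cap, read 9.52, 10.01 and 9.88 with CMPF and 9.71, 9.97 and 9.81 with vehicle, a difference of -0.03 (SE 0.145). Psme3, which forms the nuclear form of that cap, read 7.83, 7.86 and 7.81 with CMPF and 7.74, 7.88 and 7.84 with vehicle, a difference of 0.01 (SE 0.082). Psme4, the PA200 activator, read 10.18, 10.14 and 10.06 with CMPF and 10.24, 10.13 and 10.06 with vehicle, a difference of -0.02 (SE 0.089). Array 1 was the lowest of each group for Psme1 and the highest of each group for Psme4. Psme3ip1 read 8.30, 8.51 and 8.39 with CMPF and 8.37, 8.45 and 8.33 with vehicle, a difference of 0.02 (SE 0.092).

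Of the assembly chaperones of the base, Psmd5 read 8.19, 8.18 and 8.12 with CMPF and 8.12, 7.97 and 8.09 with vehicle. It was higher with CMPF in all 3 numbers, and its difference was 0.10 (SE 0.085). Psmd10, also known as the oncoprotein gankyrin, read 8.18, 8.35 and 8.36 with CMPF and 8.31, 8.53 and 8.29 with vehicle, a difference of -0.08 (SE 0.104). Psmd9 differed by 0.05 (SE 0.099). Psmc3ip, no proteasome gene by function, read 6.54, 5.97 and 6.36 with CMPF and 6.35, 5.95 and 6.20 with vehicle, a difference of 0.12 (SE 0.170, or 0.079 with the block).

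Matched by replicate number, 3 of 41 members were higher with CMPF in all 3 numbers, against 11.8% of all genes, and 4 were lower, against 11.1%. The 3 higher were Psmd4, Psmd5 and Psmc3ip, none of them in the core, and only Psmd4 is counted with the regulatory particles. The 4 lower were Psma1, Psma7, Psmb6 and Psmb7, all of them among the 16 core genes. Of the 21 regulatory genes 1 was higher in all 3 numbers and 0 lower. Among genes above the median level 9.74% were higher and 14.7% lower in all 3 numbers. For Psmb6 the differences were small, -0.05, -0.05 and -0.0064.

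The 2 particles were compared by the median difference of their genes. It was -0.0115 over the 16 core genes and 0.0079 over the 21 regulatory genes, so core minus regulatory was -0.0194. Of the core genes 6 were above 0 and 10 below. Of the regulatory genes 11 were above 0 and 10 below. By replicate number the core median was -0.0194, -0.0227 and 0.0047, and the regulatory median -0.0299, 0.0389 and 0.0176. In the same order core minus regulatory was 0.0104, -0.0616 and -0.0129, with an SD of 0.0368 over the 3 numbers. The gap between the particles was smaller than that SD and changed sign between numbers. Single arrays also set the signs: without vehicle array 2 the core median was 0.0128, and without CMPF array 2 the regulatory median was -0.0276. Without Psma8 and Psmb11, a choice made after seeing the data, the core median was -0.0235 and the gap -0.0315.

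**Figure D3:**
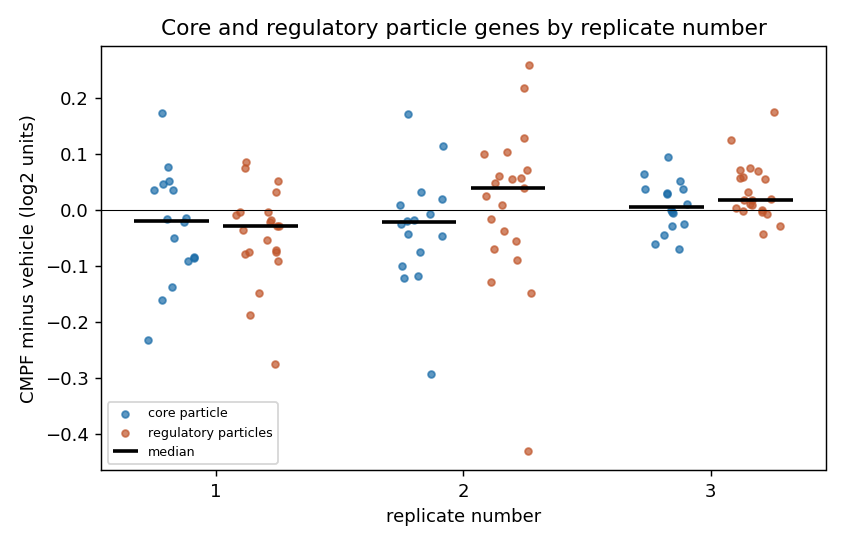
CMPF minus vehicle within each replicate number (x axis, numbers 1 to 3; y axis, log2 units) for core particle genes (blue) and regulatory particle genes (orange), with black bars at the medians. The medians lie between -0.03 and 0.04, and the particles change order between number 1 and number 2.

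The replicate numbers differed in direction. CMPF was the higher array for 12 of 41 members in number 1, 21 in number 2 and 27 in number 3. Over all genes the shares were 48.8%, 52.3% and 49.2%. Genes above the median level had shares of 33.4%, 48.9% and 55%, so number 1 was low and number 3 higher for bright genes in general. All 8 lid genes had the lower value with CMPF in number 1. Cell type markers also differed by number. CMPF was higher for 4, 4 and 0 of 8 beta cell markers in numbers 1 to 3, and for 0, 3 and 3 of 5 markers of other endocrine cells. It was higher for 0, 0 and 8 of 8 stellate and mesenchymal markers, for 4, 8 and 8 of 8 endothelial markers and for 19, 15 and 19 of 20 acinar markers. Their part in the proteasome values was not tested.

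Array 2 was the highest array of both groups for 18 of 41 members (43.9%), against 19.8% of all genes and 27.7% of genes above the median level. This held for 8 of 16 core and 10 of 21 regulatory genes, and for 0 of the remaining 4. After each gene was centred on its own mean, the median over all 41 was -0.04, 0.04 and -0.01 on CMPF arrays 1 to 3 and -0.01, 0.04 and -0.03 on vehicle arrays 1 to 3. Psmd8, a lid subunit, showed it most clearly, at 10.61, 11.07 and 10.62 with CMPF and 10.69, 11.03 and 10.45 with vehicle. Its difference was 0.05, with a standard error of 0.184 without the block and 0.085 with it. Acinar markers were highest on the same arrays, as given above for their summed signal, with 18 of 20 highest on array 2 in both groups. Of the duct cell markers 4 of 6 were highest there in both groups, and of the macrophage markers 1 of 8, Cd14. The count was 0 of 8 for beta cell markers and 2 of 5 for other endocrine cells. It was 0 of 8 for stellate and mesenchymal markers and 2 of 8 for endothelial markers. The part of these cells in the proteasome values was not tested.

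**Figure D4:**
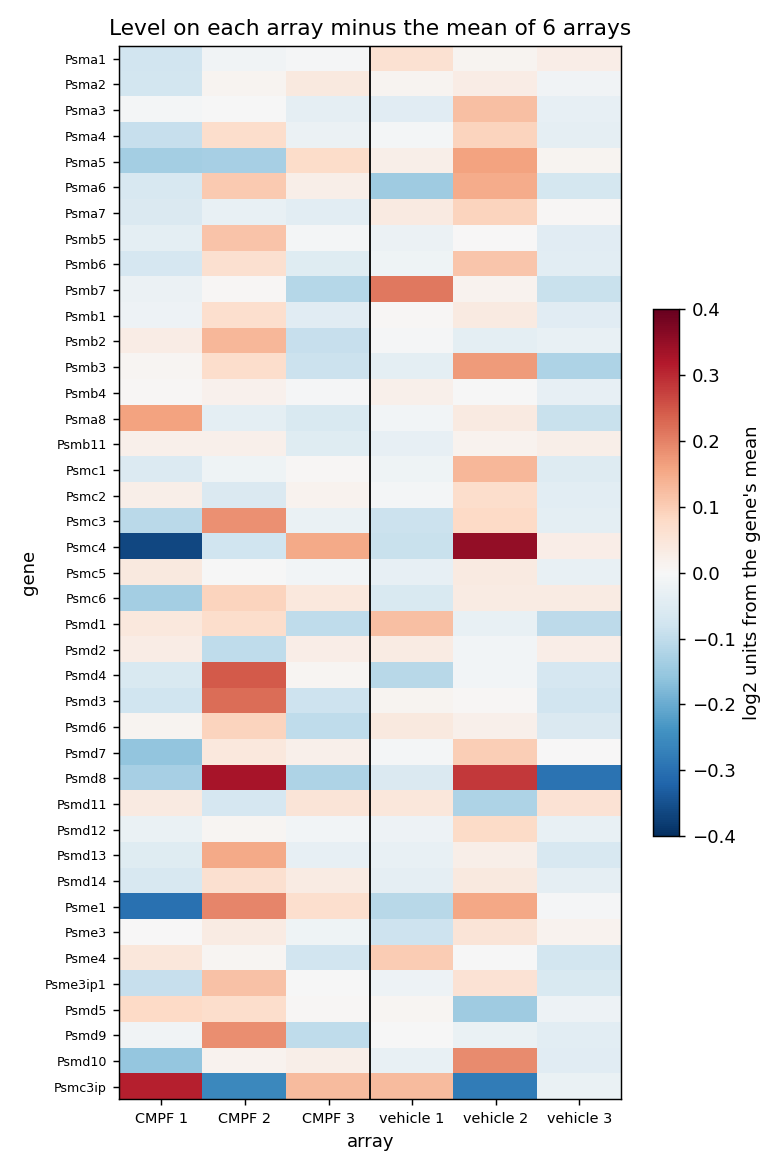
Level of each proteasome gene on each array minus its mean over the 6 arrays (color, log2 units), with genes down the page by role and the CMPF arrays left of the line, vehicle arrays right of it. Psmd8 is high on array 2 of both groups, Psmc3ip is low there, and Psmc4 is lowest on CMPF array 1.

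Several members are read by more than 1 probe set, which gives a second look at the same gene, though not always at the same transcript. The 41 genes had 87 single-gene probe sets, and 22 genes had more than 1. Of the 46 probe sets not used above, 18 lay above the median level of all genes. These ranged from -0.29 to 0.05, and 11 had the sign of the brightest probe set while 7 had the other. Most of the 18 lay below 0, and the only ones above it were sets of Psma6, Psmb3 and Psmd11. The even split of signs given above thus holds for the brightest sets only. The lowest and the highest member had second bright sets nearer to 0. For Psmc4 that set differed by -0.03, at 9.89, 9.95 and 9.94 with CMPF and 9.91, 10.04 and 9.92 with vehicle, against -0.19 on the brightest. For Psmd4 it differed by -0.06, at 9.37, 9.51 and 9.53 with CMPF and 9.48, 9.61 and 9.50 with vehicle, against 0.13.

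For Psma5 the second bright set differed by -0.04, against -0.13. For Psma7 both bright sets gave lower values with CMPF, at -0.06 and -0.09. Psma6 had both signs: 0.04 on its brightest set, -0.09 on the next and 0.05 on a dimmer one. The set at -0.09 read 10.91, 11.06 and 11.06 with CMPF and 11.08, 11.22 and 11.00 with vehicle. The reverse case was Psmb4, level on its brightest set. Its second set read 11.39, 11.25 and 11.67 with CMPF and 11.64, 11.87 and 11.67 with vehicle, a difference of -0.29 that came from arrays 1 and 2 and was 0.0047 on array 3. A second set of Psmd13 read 8.29, 8.26 and 8.33 with CMPF and 8.48, 8.59 and 8.39 with vehicle, without overlap, a difference of -0.20, while its brightest set differed by 0.05. These sets were not in the fit and have no test.

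**Figure D5:**
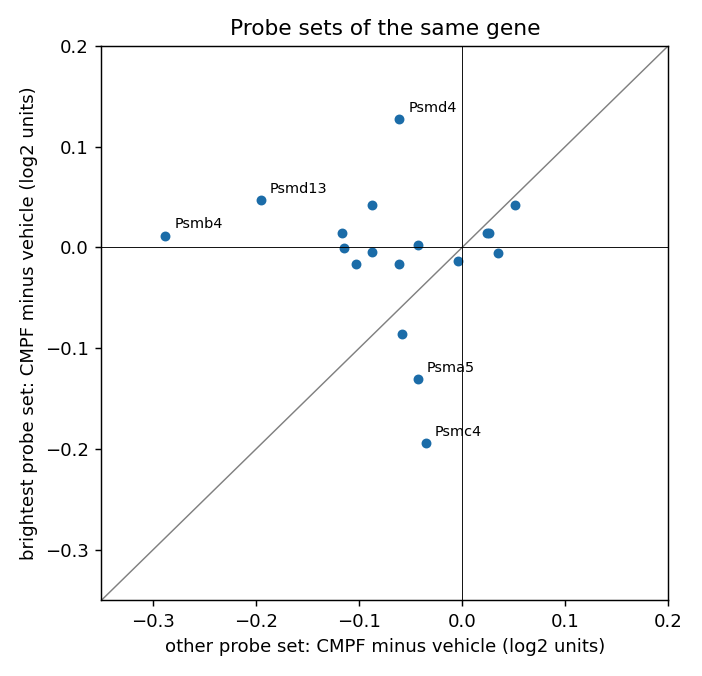
CMPF minus vehicle on the brightest probe set of a gene (y axis, log2 units) against that on its other probe sets above the median level (x axis, log2 units), 18 points, with the line of equality in grey. Psmb4 lies furthest left, at -0.29, with its brightest set near 0, and Psmc4 lies lowest, at -0.19, with its other set at -0.03.

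Genes with and without the antioxidant response element core in their promoter were set side by side, with no test. The median difference was -0.0040 over the 5 with the motif, from -0.03 for Psmb6 to 0.05 for Psmd9, and -0.0036 over those without it. For CCAAT the medians were -0.0059 with it and -0.00093 without. Nfe2l1, which drives proteasome genes when the complex is inhibited, read 9.998, 9.86 and 9.92 with CMPF and 9.99, 9.77 and 9.96 with vehicle, a difference of 0.02 (SE 0.096). Nfe2l2 read 9.50, 10.24 and 9.75 with CMPF and 9.58, 10.13 and 9.48 with vehicle, a difference of 0.11 (SE 0.232), and was highest on array 2 in both groups. Both factors act largely through changes in their protein, which arrays do not measure. Nfe2l3, a relative with a mean level of 6.19, differed by -0.14 (SE 0.508) and was also highest on array 2 in both groups. Vcp, the ATPase that extracts proteins for degradation, differed by -0.02 (SE 0.078).

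No gene of the related lists passed the test, which does not show that they were level. Limma called 0 genes of each of the lists that follow, and 0 of their genes had an unadjusted p under 0.05. The 3 immunoproteasome genes, catalytic subunits that interferon induces, differed by -0.04 (Psmb8, SE 0.113), 0.0051 (Psmb9, SE 0.085) and -0.0012 (Psmb10, SE 0.090). The 5 chaperones of core assembly had a median of -0.02, with -0.08 for Psmg2 and 0.04 for Psmg3. Pomp, which completes the core, was lower in all 3 numbers, by a mean of -0.02. Of 8 measured associated genes, Usp14, a deubiquitinase that trims chains at the proteasome, read 9.19, 9.28 and 9.10 with CMPF and 8.82, 9.15 and 9.11 with vehicle, a difference of 0.16 (SE 0.116; 95% interval -0.11 to 0.43). Akirin2, which carries proteasomes into the nucleus, differed by -0.07 (SE 0.107).

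Among 5 measured shuttle receptors, which bring ubiquitinated proteins to the proteasome or to autophagy, Sqstm1 and Ubqln2 lay furthest from 0. Sqstm1 read 11.98, 11.82 and 11.69 with CMPF and 11.79, 11.59 and 11.67 with vehicle. It was higher in all 3 numbers, by a mean of 0.15 (SE 0.108; 95% interval -0.10 to 0.40; limma unadjusted p = 0.210, or 0.118 with the block). Ubqln2 was lower in all 3, by a mean of -0.11 (SE 0.090; 95% interval -0.33 to 0.10). The ubiquitin genes and Uba1 were not analysed here.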

How the data were processed

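The deposited values are on the log2 scale. Per the submitters' processing notes, the authors used Affymetrix Expression Console 1.1 and RMA, a method that corrects background, makes the arrays share 1 distribution and gives 1 value per probe set. Its settings were not stated. Of 45101 probe sets, 34945 were listed with 1 gene, 932 with several and 9160 with none, and 64 controls were left out. By Entrez ID 34741 matched RefSeq, and 0 symbols changed. Each of 18193 genes was read from its brightest single-gene probe set, with no filter on dim genes. CMPF minus vehicle was tested with limma 3.58.1 (R 4.3.3). Its two-sided p-values were adjusted by Benjamini-Hochberg across the whole table. On simulated data, drawn without pairing, 200 of 18193 genes were changed, 50 each by 0.5, 1, 2 and 4 log2 units. Limma recovered 44% of changes of 0.5 and 74% of changes of 1, and with the block 0% and 52%. The large changes ease the Benjamini-Hochberg cutoff for the small ones. These shares therefore do not carry over to the real values, where 0% of genes were called and arrays of the same number correlated. The number of arrays limits the precision.

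Replicate numbers were taken as pairs from the data: deviations from the group mean correlated at 0.488 to 0.638 for arrays of the same number, and at -0.555 to 0.0885 otherwise. Deviations within a group sum to 0, so positive values for the same number push the others down. The 2 ranges are thus not independent, and the fit with the block used the same data. Genes and lists were chosen with earlier results of these data known. Every member is counted by role. Values per array are given for Psmb5, Psmb6, Psmb7, Psmd14, Psme1, Psme3 and Psme4, for up to 2 members of each role with the smallest p under the block, and for the 10 largest differences. Of each related list the 2 genes with the smallest p under the block are named, with Nfe2l1 and Nfe2l2. Psmd8, Psmb10, Pomp, Vcp, Slc2a2 and the probe sets other than the brightest were named after their values were seen.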

Additional observations from a re-analysis of the deposited data

How the results depend on the processing

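The count of genes and of proteasome members past the threshold was 0 in every setting tried: the replicate block, a trended prior, array weights, median centring, a second quantile normalization, means of probe sets, 2 filters on dim genes, and leaving out any array or replicate number. Smallest adjusted p-values over all genes ran from 0.978 upward. The replicate block gave 0 calls, as without it, and changed no other call. With the second quantile normalization the median difference was 0.0298 over all members and 0.0136 over the core, both above 0 where the reported values lay below. The median of other bright genes in that setting is not given, so the change may not be particular to the proteasome. With that normalization 7 members were higher in all 3 numbers and 2 lower, and with median centring 5 and 7. Leaving out an array or a number gave medians from -0.0306 to 0.0180 for all members, from -0.0409 to 0.0128 for the core and from -0.0276 to 0.0258 for the regulatory particles. With only 2 numbers left, 5 to 13 members were higher in both and 6 to 13 lower in both. Agreement in 2 numbers is reached more easily than in 3. Shares over all genes are not given for these settings, so the counts show nothing particular to the members. Core minus regulatory stayed between -0.0457 and -0.0056 when an array or a number was left out and was 0.0040 with means of probe sets. The sign of each of these medians thus depended on a setting, and the cause was not tested. Without a detection call, dim members could not be told from undetected ones.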
